A study of Mus musculus with 12 samples.

Results

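The genes described here are 6 that encode metabotropic glutamate receptors, Grm2, Grm3, Grm4, Grm5, Grm7 and Grm8. They were taken by gene symbol from the deposited tables of 41388 genes, and all 6 passed the filter on low counts that kept 17441 genes. The tables hold poly(A) RNA-seq of cortical tissue from 12 adult C57Bl/6 mice, 3 libraries in each of 4 groups. KI is the knock-in line, in which exon 5 of Grin1 is constitutive (genotype Grin1-exon5+/+), and KI_WT is the wild type of that line. KO is the knockout of the same exon (Grin1-exon5-/-), and KO_WT is the wild type of the knockout line. Grin1 encodes GluN1, the obligatory subunit of NMDA receptors, and its exon 5 is spliced in or out to give receptors with or without a small extracellular insert. The labels name no Cre, treatment or sex. Each library carries an animal number of its own, so replicates were taken as separate animals. Libraries are numbered within a group in the order of the sample records, so that KI 1 and KO 1 share nothing but a number.

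Metabotropic glutamate receptors are G protein-coupled receptors that bind glutamate with a large extracellular domain and work more slowly than the ion channel receptors. Grm5 is a group I receptor, which couples to Gq, phospholipase C and calcium release and lies mostly at the edge of the postsynaptic density, where Homer proteins tie it to Shank and, through Shank, to the NMDA receptor scaffold. Grm2 and Grm3 form group II and Grm4, Grm7 and Grm8 belong to group III. Both of these groups couple to Gi and Go and lower cyclic AMP. Grm2 lies on axons and presynaptic membranes, Grm3 is made by neurons and astrocytes, and group III receptors lie mainly at the release sites of presynaptic terminals. Transcripts of presynaptic receptors are found where the neuron's cell body lies, so cortical RNA reports on the neurons and glia that reside in the dissected tissue.

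In GRCm38 Grm5 (ENSMUSG00000049583) lies on chromosome 7 from 87584168 to 88134907 on the plus strand. Grm2 (ENSMUSG00000023192) lies on chromosome 9 from 106643095 to 106656082 and Grm3 (ENSMUSG00000003974) on chromosome 5 from 9485541 to 9725170, both on the minus strand. Grm4 (ENSMUSG00000063239) lies on chromosome 17 from 27422387 to 27521403 on the minus strand. Grm7 (ENSMUSG00000056755) spans 110645581 to 111567230 on the plus strand of chromosome 6, and Grm8 (ENSMUSG00000024211) spans 27275119 to 28135178 on the minus strand of the same chromosome. Grm2 is compact, with 12988 bp from end to end, whereas the other genes span 99017 bp (Grm4) to 921650 bp (Grm7). The annotated antisense genes Gm28111 and Gm20387 overlap exons of Grm2 and Grm7. No source used here states whether the counting used strand, so reads of those exons may belong to either gene. Gm20387 had a mean of 85.25 counts a library against 1662 for Grm7. For Gm28111 no count was obtained, so the overlap with Grm2 was not sized.

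Promoters of 3 of these genes are printed because the group II pair Grm2 and Grm3 had different directions in the knockout line, and because Grm2 and Grm7 had the highest Pearson correlation of the 15 pairs over the 12 libraries. Each is the stretch of 250 bases before an annotated RefSeq start in GRCm38.p6, written 5′ to 3′ on the strand of the gene. Capitals mark the GC box, GGGCGG or its complement CCGCCC, which Sp-family factors can bind.
Grm2 (chr9:106656110-106656359, minus strand): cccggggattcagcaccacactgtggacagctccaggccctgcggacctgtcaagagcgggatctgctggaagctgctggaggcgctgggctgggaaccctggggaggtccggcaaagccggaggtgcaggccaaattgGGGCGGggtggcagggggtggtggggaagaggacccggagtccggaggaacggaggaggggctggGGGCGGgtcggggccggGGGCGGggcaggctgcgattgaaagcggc
Grm3 (chr5:9725353-9725602, minus strand): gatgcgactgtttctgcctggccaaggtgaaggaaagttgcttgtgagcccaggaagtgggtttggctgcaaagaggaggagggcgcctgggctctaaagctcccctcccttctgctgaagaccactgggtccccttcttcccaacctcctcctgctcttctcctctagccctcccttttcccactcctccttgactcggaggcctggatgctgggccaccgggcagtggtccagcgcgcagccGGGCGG
Grm7 (chr6:110645262-110645511, plus strand): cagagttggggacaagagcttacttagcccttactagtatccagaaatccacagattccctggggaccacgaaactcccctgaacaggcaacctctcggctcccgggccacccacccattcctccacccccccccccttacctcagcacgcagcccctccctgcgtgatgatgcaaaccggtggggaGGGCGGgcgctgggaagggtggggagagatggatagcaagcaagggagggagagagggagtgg
The Grm2 stretch held 3 GC boxes and 16 CpG dinucleotides at 71.2% G and C. The Grm3 stretch held 1 GC box and 8 CpG at 62.4%, and the printed Grm7 stretch 1 GC box and 8 CpG at 62%. A further start listed for Grm7 has an overlapping stretch, not printed, with 1 GC box and 9 CpG at 65.2%. Among all 32851 RefSeq promoters of the same length 32.74% held a GC box, the median G and C content was 52.4% and the median CpG count was 6. The cAMP response element TGACGTCA was in 1.546% of all promoters and the TATA box TATAAA, or TTTATA on the other strand, in 12.37%. Neither was in any of the 7 stretches listed for Grm2, Grm3, Grm7 and Grm8, so that no GC box there overlapped either.

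Grm5 and Grm3 were the most abundant transcripts of the 6 and Grm8 the least. The scale for comparing genes is the authors' RPKM, read counts scaled by transcript length and library total. The order of Grm5 and Grm3 and the shares of the receptor groups depend on the lengths used, which are given with the processing. Over the 12 libraries Grm5 was at 31.7 ± 2.25 RPKM (SD, n = 12) and Grm3 at 26.5 ± 3.96. Grm7 was at 8.35 ± 0.812, Grm2 at 6.47 ± 1.25, Grm4 at 4.69 ± 1.34 and Grm8 at 1.75 ± 0.855 RPKM (SD, n = 12). Grm3 was above Grm7, Grm7 above Grm2 and Grm4 above Grm8 in 12 of 12 libraries. Grm5 was above Grm3 in 11 of 12, the exception being KO_WT 1, where Grm3 reached 33.3 RPKM against 30.2 for Grm5. Grm2 was above Grm4 in 10 of 12, the exceptions being KI 2 and KO 1. The ranges of neighbours in this order overlap over the 12 libraries except for Grm3 and Grm7, whose lowest and highest values were 20.04 and 10.7 RPKM. The group I receptor Grm5 made up 40.01% of the summed RPKM of the 6 genes, group II 41.4% (34.2% to 47.1% by library) and group III 18.6% (14.0% to 22.1%).

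**Figure D1:**
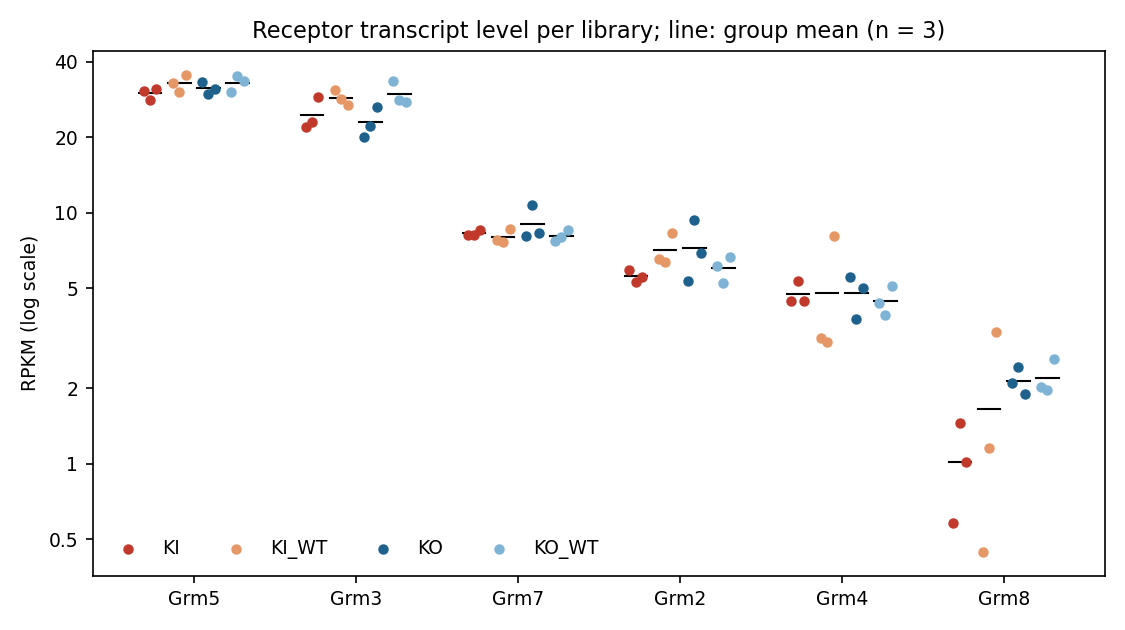
RPKM of each receptor transcript in each of the 12 libraries (points, coloured by group, log scale) with the mean of each group of 3 (lines). Grm5 and Grm3 lie between 20.04 and 35.5 RPKM in all groups, and Grm8 runs from 0.445 to 3.34 RPKM, with the KI libraries all below the KO and KO_WT libraries.

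The genes differed in how much they varied between animals. Grm5 had a coefficient of variation of 8.17% over the 12 libraries and Grm7 of 8.77%, below the median of 12.1% over the genes tested. Grm3 varied by 17.3% and Grm2 by 19.0%. Grm4 varied by 27.4%, more than 81.5% of all genes tested, and Grm8 by 48.6%, more than 95.8% of them. Grm8 had the lowest counts of the 6, with 111 to 868 a library, and a span of 7.23-fold in scaled level. Counting error alone is 9.49% at 111 counts and 3.39% at 868. The libraries held 31790970 to 36514024 counts over 21927 to 22809 detected genes.

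The dissected tissue was checked with marker lists. Summed levels of 9 upper-layer neuron markers ran from 609 to 821 CPM (counts scaled to a common library total with TMM, edgeR's trimmed mean method) and those of 12 astrocyte markers from 3081 to 3605 CPM. No marker of either list was at 0 in any library. Transcripts of regions beside the cortex differed more between libraries than these did. Summed levels of 12 olfactory bulb markers were 1163 CPM in KI_WT 3, 748 in KO_WT 3 and 657 in KO 1, while the other 9 ranged from 286 to 466 CPM. Choroid plexus markers, 9 in number, summed to 22.3 CPM in KO_WT 1, 28.6 CPM in KI_WT 3 and 33.1 CPM in KO_WT 3, against 571 to 1957 CPM elsewhere. Striatum markers, 11 in number, summed to 520 to 1526 CPM. Summed levels of 14 thalamus markers were 458 to 647 CPM in KI against 306 to 429 in KI_WT, and 358.4 to 674 in KO against 280 to 497 in KO_WT. Ddx3y, a gene of the Y chromosome, was at 90.7 to 108 CPM in 1 KI, 2 KI_WT, 1 KO and 3 KO_WT libraries and did not exceed 0.0876 CPM in the rest. Sex is therefore mixed and partly confounded with genotype, most in the knockout line. With a term for Y chromosome transcripts the log2 fold change of Grm2 in KI against KI_WT was -0.36 and that of Grm3 in KO against KO_WT was -0.43, against -0.39 and -0.43 without it. In bulk tissue fewer cells of a type and less RNA per cell cannot be told apart.

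None of the 6 receptor genes passed the threshold (edgeR quasi-likelihood test, Benjamini-Hochberg adjusted p under 0.05 over 17441 genes) in any of the 5 comparisons. In KI against KI_WT 0% of all genes passed, and 6.96% had an unadjusted p under 0.05 (1214 genes; DESeq2 called 4). In KO against KO_WT the shares were 0.00573% (1 gene) and 7.22% (1260 genes; DESeq2 called 8). In KI against KO they were 0.00573% (1 gene) and 5.43% (947 genes; DESeq2 called 14), between the wild types 0% and 1.96% (DESeq2 called 1), and for the difference of the effects of the lines 0.00573% (1 gene) and 5.26% (918 genes; DESeq2 called 5). The share of all genes whose libraries did not overlap was 12.2% in KI against KI_WT, 12.4% in KO against KO_WT, 10.2% in KI against KO and 7.31% between the wild types. With 3 libraries against 3 an exact permutation test cannot give a p below 0.1. Among the 6 receptor genes 1 had an unadjusted p under 0.05 in each comparison except that of the wild types, where none did. The comparisons share libraries, so they are not independent of each other.

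**Figure D2:**
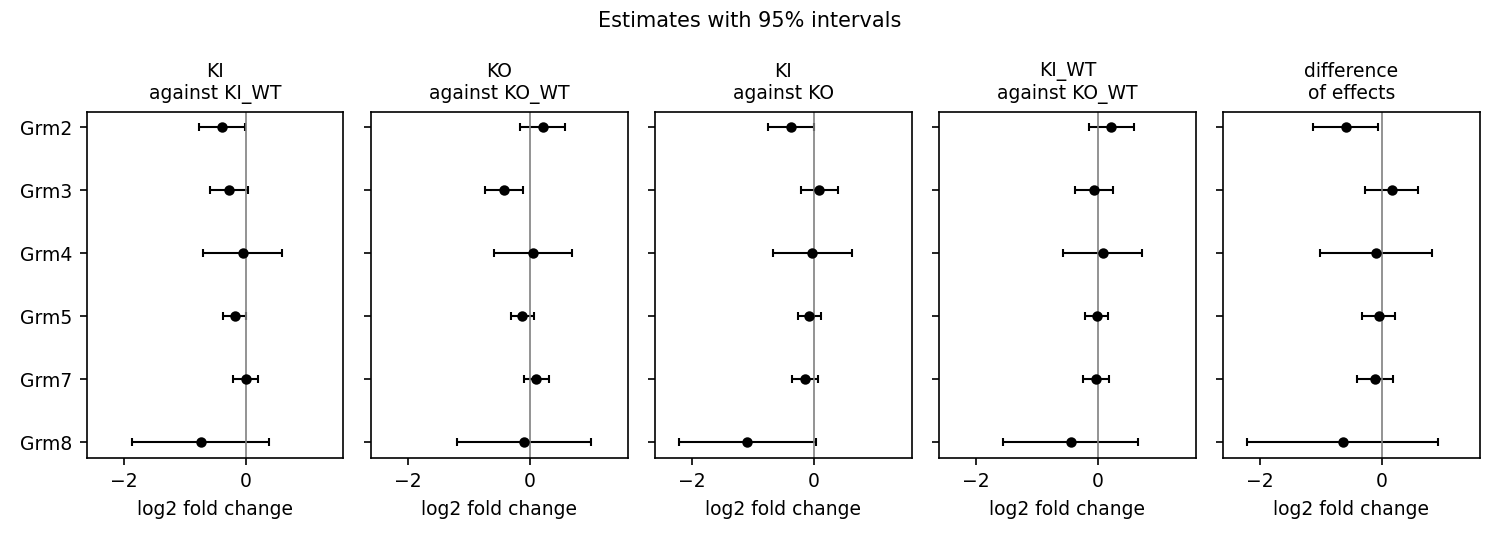
Log2 fold change of each receptor transcript (points) with its 95% interval from edgeR (bars) in the 5 comparisons. The narrowest intervals are those of Grm5 and Grm7 and the widest those of Grm8, which reach from -2.22 to 0.03 in KI against KO.

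Grm5, the group I receptor of the postsynaptic side, had a slightly lower mean in the mutants of both lines. Its scaled levels in libraries 1 to 3 were 242, 212 and 248 CPM in KI and 269, 247 and 280 CPM in KI_WT. The libraries overlapped, since KI 3 lay just above KI_WT 2. For Grm5 this was a log2 fold change of -0.18 (SE 0.086, 95% interval -0.37 to 0.01; unadjusted edgeR p = 0.0560; edgeR adjusted p = 0.719; exact permutation p = 0.2). The unadjusted p was 0.0361 with DESeq2 and 0.0725 with edgeR without a count filter, and neither passed after adjustment. Without KI 2 the log2 fold change was -0.11, and with terms for the thalamus and olfactory bulb scores -0.28. In the knockout line Grm5 was at 258, 231 and 249 CPM in KO and 250, 286 and 270 CPM in KO_WT, again with overlap. The difference was -0.13 on the log2 scale (95% interval -0.31 to 0.06; edgeR adjusted p = 0.725), and -0.077 without KO_WT 2, -0.082 without KO 2 and -0.20 with the region terms. KI and KO differed in Grm5 by -0.07 and between the wild types by -0.02 on the log2 scale.

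Grm2, the presynaptic autoreceptor of group II, had a lower mean in KI than in KI_WT (26.8 ± 2.12 against 35.0 ± 4.41 CPM; SD, n = 3). Its levels were 28.6, 24.4 and 27.2 CPM in KI and 33.0, 32.0 and 40.1 CPM in KI_WT, from 857 to 1342 counts a library. All 3 KI libraries lay below all 3 KI_WT libraries (exact permutation p = 0.1, two-sided). Grm2 had a log2 fold change of -0.39 (SE 0.17, 95% interval -0.76 to -0.02), an unadjusted edgeR p of 0.0424 and an edgeR adjusted p of 0.713, which did not pass. The summed thalamus markers did not overlap between KI and KI_WT either, and their part alone in the Grm2 value was not tested. Over the alternative settings, with joint terms for thalamus and olfactory bulb scores among them, that value ran from -0.49 to -0.28. In the knockout line the levels of Grm2 were 25.6, 44.6 and 34.2 CPM in KO and 31.2, 26.1 and 32.9 CPM in KO_WT. KO held both the highest and the lowest of these 6 libraries. On the log2 scale KO exceeded KO_WT by 0.21 (95% interval -0.16 to 0.58; edgeR adjusted p = 0.762), and without KO 2, the highest library, the value was -0.0065.

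The effects of the lines on Grm2 had opposite signs. The difference between the effect in KI and the effect in KO was -0.60 on the log2 scale (SE 0.24, 95% interval -1.12 to -0.07). The unadjusted edgeR p of this difference was 0.0295 and the edgeR adjusted p was 0.918, which did not pass. Without KO 2 the difference was -0.37. The level of Grm2 in KI was lower than in KO by a log2 fold change of -0.38 (95% interval -0.75 to -0.005; edgeR adjusted p = 0.905; exact permutation p = 0.3), with libraries that overlapped at KO 1. Without KO 2 this value was -0.15. KO 1 was 1 of the libraries high in olfactory bulb markers, and KO 2 had the lowest summed level of 11 oligodendrocyte markers (5017 CPM against 6213 to 11809 in the others). The part of either alone in the Grm2 values was not tested. Over the alternative settings, with the joint region terms among them, the difference of effects ran from -0.74 to -0.45.

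Grm3, the group II receptor that astrocytes make as well as neurons, had a lower mean in KO than in KO_WT (80.0 ± 13.0 against 108 ± 13.1 CPM; SD, n = 3). By library it was at 69.1, 76.5 and 94.4 CPM in KO and at 123, 101.4 and 98.8 CPM in KO_WT, from 2522 to 3898 counts. All 3 KO libraries lay below all 3 KO_WT libraries, and the gap between the nearest, KO 3 and KO_WT 3, was smaller than the spread within either group. Grm3 had a log2 fold change of -0.43 (SE 0.14, 95% interval -0.74 to -0.12), a fold of 0.743 (0.600 to 0.920). The unadjusted edgeR p was 0.0106, the edgeR adjusted p was 0.678, and the exact permutation p was 0.1, the smallest possible. Over the alternative settings, with terms for region scores or the animal number range among them, the log2 fold change ran from -0.53 to -0.35. In the knock-in line Grm3 was at 76.9, 76.6 and 102 CPM in KI and 112, 103 and 93.5 CPM in KI_WT. KI 1 and KI 2 lay below all KI_WT libraries and KI 3 among them. The corresponding log2 fold change was -0.27 (SE 0.14, 95% interval -0.58 to 0.04; edgeR adjusted p = 0.732).

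Both lines had the lower mean of Grm3 in the mutant, and the difference between their effects was 0.16 (95% interval -0.28 to 0.59; edgeR adjusted p = 0.943). KI and KO differed in Grm3 by 0.09 (95% interval -0.22 to 0.40) and the wild types by -0.07 (95% interval -0.37 to 0.24) on the log2 scale. Summed levels of the 12 astrocyte markers were 3177 to 3286 CPM in KO and 3511 to 3605 CPM in KO_WT, without overlap, and overlapped between KI (3081 to 3292 CPM) and KI_WT (3109 to 3295 CPM). Summed upper-layer neuron markers were 609, 625 and 735 CPM in KO and 821, 649 and 713 CPM in KO_WT. KO lay below KO_WT without overlap also for 7 oligodendrocyte precursor markers (269 to 367 against 378 to 409 CPM), 10 microglia markers (454 to 482 against 498 to 554 CPM) and 9 endothelium markers (293 to 367.7 against 375 to 416 CPM), and above it for 7 cerebellum markers (88.8 to 115 against 64.8 to 76.0 CPM). The part of any of these in the Grm3 value was not tested.

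The ratio of the group II receptors, Grm3 over Grm2 in RPKM, was 3.31 ± 0.812 (SD, n = 3) in KO and 4.99 ± 0.726 in KO_WT. It was 3.74, 2.38 and 3.82 in KO and 5.44, 5.38 and 4.15 in KO_WT, so the ratio did not overlap between these groups. In the knock-in line the ratio was 4.41 ± 0.737 in KI and 4.13 ± 0.787 in KI_WT (SD, n = 3), a difference below either SD. The ratio was computed as a description and has no test.

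**Figure D3:**
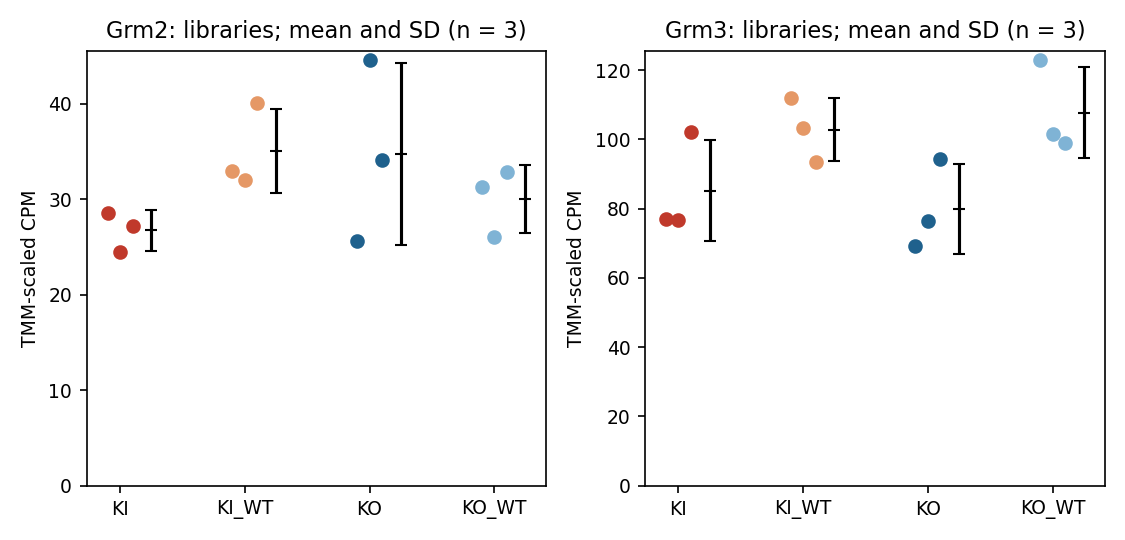
TMM-scaled CPM of the group II receptors Grm2 (left) and Grm3 (right) by library (points) with the mean and SD of each group of 3 (bars). For Grm2 the KI points lie below the KI_WT points, and for Grm3 the KO points lie below the KO_WT points.

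Among the group III receptors Grm7, which sits at the release sites of many terminals, had nearly equal means. It was at 47.3, 45.4 and 50.1 CPM in KI and 47.1, 45.9 and 50.001 CPM in KI_WT. KI and KI_WT differed in Grm7 by -0.003 on the log2 scale (95% interval -0.21 to 0.21; edgeR adjusted p = 0.997). In KO Grm7 was at 46.5, 61.6 and 49.5 CPM, against 47.3, 47.9 and 50.9 CPM in KO_WT. KO and KO_WT differed by 0.11 (95% interval -0.10 to 0.32; edgeR adjusted p = 0.780). KO 2 was the highest of all 12 libraries for Grm7 as it was for Grm2, and without KO 2 the log2 fold change of Grm7 was -0.018.

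Grm4, a group III receptor best known from cerebellar granule cell terminals, had group means of 24.2 to 25.5 CPM, and its values turned on KI_WT 3. It was at 23.5, 26.8 and 23.7 CPM in KI and at 17.3, 16.6 and 42.6 CPM in KI_WT. The KI libraries were close together and lay between KI_WT 3 above and KI_WT 1 and KI_WT 2 below. The log2 fold change of Grm4 was -0.05 (SE 0.30, 95% interval -0.69 to 0.59; edgeR adjusted p = 0.980). Without KI_WT 3 it was 0.55, with an unadjusted edgeR p of 0.00534 and an edgeR adjusted p of 0.706, and the adjusted p was at least 0.585 in every setting tried. In the knockout line Grm4 was at 28.6, 19.7 and 27.0 CPM in KO and 24.1, 21.3 and 27.3 CPM in KO_WT, with a log2 fold change of 0.05 (95% interval -0.59 to 0.69; edgeR adjusted p = 0.977).

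Grm8, the least abundant of the 6, had its lowest group mean in KI (7.77 ± 3.13 CPM; SD, n = 3). It was at 4.53, 10.8 and 8.00 CPM in KI, from 160, 378 and 274 counts, and at 3.59, 9.29 and 25.9 CPM in KI_WT, from 111, 304 and 868 counts. KI_WT 1 and KI_WT 3 were thus the lowest and the highest of all 12 libraries. In the knockout line Grm8 was at 16.1, 18.6 and 14.999 CPM in KO and 16.5, 15.7 and 20.7 CPM in KO_WT, a narrower range. The log2 fold change of KI over KI_WT was -0.74 (SE 0.52, 95% interval -1.86 to 0.39; edgeR adjusted p = 0.800), and without KI_WT 3 it was 0.27. That of KO over KO_WT was -0.09 (SE 0.50; edgeR adjusted p = 0.974). All 3 KI libraries lay below all 3 KO libraries, with a log2 fold change of -1.09 (SE 0.52, 95% interval -2.22 to 0.03; edgeR adjusted p = 0.905; exact permutation p = 0.1). The unadjusted p was 0.0553 with edgeR, 0.0745 with DESeq2, and 0.0229 both with limma voom and with edgeR without a count filter. None passed after adjustment.

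The wild types of the lines had their Grm8 means in the same order as KI and KO. KI_WT over KO_WT was -0.45 (SE 0.51, 95% interval -1.55 to 0.65; edgeR adjusted p = 0.9998), with -1.45 without KI_WT 3 and 0.0030 without KI_WT 1. KI and KO come from separate lines, so line and genotype cannot be told apart in their direct comparison. The difference between the effects of the lines was -0.65 for Grm8 (95% interval -2.21 to 0.92; edgeR adjusted p = 0.937).

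As a set, the 6 receptor genes all had a lower mean in KI than in KI_WT, with a median log2 fold change of -0.23 against -0.01 over all genes. In KO against KO_WT 3 were higher and 3 lower, with a median of -0.02 against 0.01 over all genes. The count in KI includes Grm7, at -0.003, and Grm4 and Grm8, whose direction turned without KI_WT 3. In each of the 4 comparisons between groups except that of the wild types, 1 of the 6 had libraries that did not overlap (Grm2 in KI against KI_WT, Grm3 in KO against KO_WT, Grm8 in KI against KO), which is no more than 1 gene against the backgrounds given above and is not read as a result about the receptors.

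KI_WT 3 stood highest of all libraries in Grm4, in Grm8 and in olfactory bulb markers, and it was among the 3 libraries nearly without choroid plexus markers. Across the 12 libraries the olfactory bulb score, the mean of the centred log2 levels of its 12 markers, correlated with Grm4 at Pearson r = 0.772 (permutation p = 0.00188, adjusted p = 0.0884) and Spearman rho = 0.601 (permutation p = 0.0415, adjusted p = 0.416). Without the 2 libraries farthest from the median score r was 0.543. For Grm8 the same correlation was r = 0.521 (permutation p = 0.0802, adjusted p = 0.423) and rho = 0.517 (permutation p = 0.0881, adjusted p = 0.416), and 0.218 without those 2 libraries. The score of 12 interneuron markers correlated with Grm4 at r = 0.771 (permutation p = 0.00268, adjusted p = 0.0884) and rho = 0.783 (permutation p = 0.00383, adjusted p = 0.190), and at 0.587 without the 2 farthest. Other lists were about as close to Grm4. Hippocampus markers had r = -0.699 (permutation p = 0.00766, adjusted p = 0.152) and rho = -0.783 (permutation p = 0.00362, adjusted p = 0.190), and -0.651 without the 2 farthest libraries. Striatum markers had r = 0.648 (permutation p = 0.0200, adjusted p = 0.248) and rho = 0.622 (permutation p = 0.0342, adjusted p = 0.416), and 0.620 without the 2 farthest. Gad1, the first of the interneuron markers and one that olfactory bulb granule cells also express, was at 797 CPM in KI_WT 3 while no other library exceeded 537 CPM. Whether cells of the olfactory bulb or of any other region contributed to the Grm4 and Grm8 values was not tested.

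**Figure D4:**
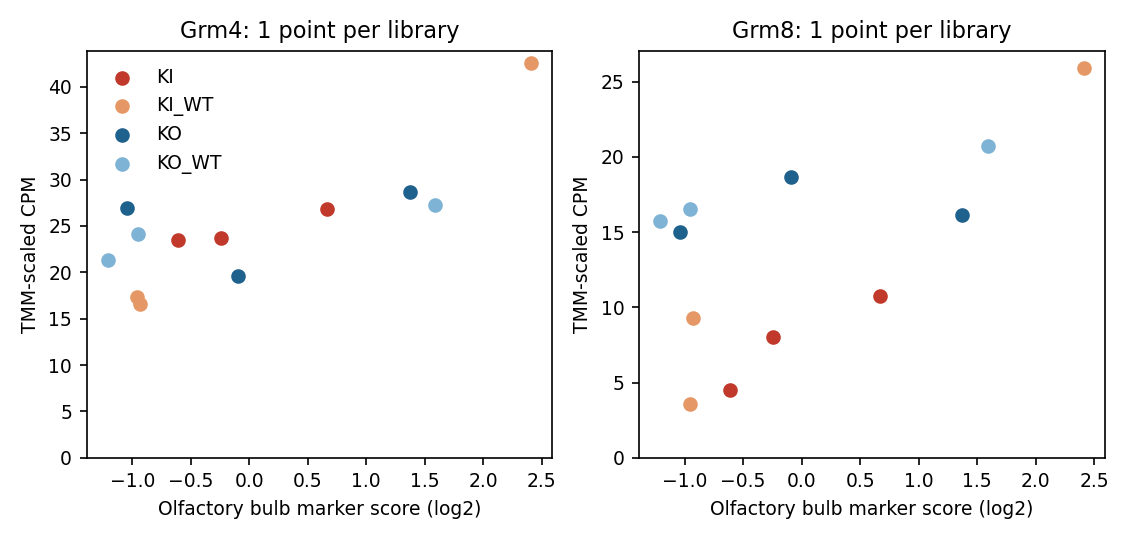
TMM-scaled CPM of Grm4 (left) and Grm8 (right) against the olfactory bulb marker score, 1 point per library coloured by group. KI_WT 3 is the point at the upper right of both panels, at a score of 2.41, with 42.6 CPM of Grm4 and 25.9 CPM of Grm8.

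Grm3 had its highest Pearson correlation with the upper-layer neuron score, with r = 0.779 (permutation p = 0.00236, adjusted p = 0.0884), Spearman rho = 0.706 (permutation p = 0.0129, adjusted p = 0.256) and r = 0.614 without the 2 farthest libraries. With the oligodendrocyte score Grm3 had r = 0.624 (permutation p = 0.0279, adjusted p = 0.252) and rho = 0.706 (permutation p = 0.0129, adjusted p = 0.256), and 0.754 without the 2 farthest libraries. With oligodendrocyte precursors it had r = 0.632 (permutation p = 0.0264, adjusted p = 0.252) and rho = 0.594 (permutation p = 0.0451, adjusted p = 0.416). With the cerebellum score Grm3 had r = -0.685 (permutation p = 0.0136, adjusted p = 0.224) and rho = -0.727 (permutation p = 0.00923, adjusted p = 0.256), the largest rho of Grm3 in size. With the astrocyte score Grm3 had r = 0.329 (permutation p = 0.294, adjusted p = 0.613) and rho = 0.441 (permutation p = 0.153, adjusted p = 0.524). Grm2 and Grm7 had r = 0.736 (permutation p = 0.00418, adjusted p = 0.103) and rho = 0.580 (permutation p = 0.0529, adjusted p = 0.416). Their r was 0.375 without the 2 farthest libraries, so the relation with group means kept rests largely on those 2. Without their 2 farthest libraries Grm3 and Grm5 (0.711) and Grm4 and Grm8 (0.486) had higher r. Over all 12 libraries Grm4 and Grm8 had r = 0.580 (permutation p = 0.0514, adjusted p = 0.359) and rho = 0.587 (permutation p = 0.0508, adjusted p = 0.416), a rho above that of Grm2 and Grm7. For Grm3 and Grm5 r was 0.459 (permutation p = 0.134, adjusted p = 0.557) and rho 0.315 (permutation p = 0.318, adjusted p = 0.704). The group II pair Grm2 and Grm3 had r = 0.126 (permutation p = 0.696, adjusted p = 0.897) and rho = 0.0979 (permutation p = 0.765, adjusted p = 0.935). Of the 99 relations computed, 15 between the receptor genes and 84 with 14 marker lists, 0 passed after Benjamini-Hochberg adjustment by either coefficient. With the group means removed from the levels 1 passed by both coefficients, between interneuron markers and Grm4 (r = 0.817, rho = 0.888). A further 2 passed by Pearson only, between Grm2 and Grm7 (r = 0.874) and between olfactory bulb markers and Grm4 (r = 0.790), each with an adjusted permutation p of 0.0880 by Spearman. Without the 2 farthest libraries of each these r values were 0.626 and 0.599. The permutation ran freely over all 12 libraries, although levels with group means removed are tied to each other within a group. The p-values of this setting are therefore too small, and what passed in it is not read as a result. Animal numbers fall into a low and a high range. The low range holds KO 1, KO_WT 2 and KO_WT 3, all of the knockout line, so it is uneven within KO against KO_WT. Within the 9 libraries of the high range the olfactory bulb and Grm4 correlation was 0.787.

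The genes whose log2 levels followed each receptor most closely over the 12 libraries were taken from 14597 genes at 1 CPM or more. For Grm3 they were Dennd4a (Pearson r = 0.984), Sh3glb1 (0.965) and Dlg2 (0.964), the last a scaffold protein of the postsynaptic density. Those of Grm5 included Picalm (0.939) and Ccdc47 (0.938). For Grm2 they were B3glct (0.916), Mroh5 (0.888) and Pcdh15 (0.886), and for Grm7 Cast (0.928), Gpr115 (0.905) and Hcfc2 (0.900). For Grm4 they were Fam20c (0.942), Ndrg4 (0.926) and Cited2 (0.919). Grm8 had the lowest values, with Nme7 (0.861), Xlr3a (0.795) and 4930525G20Rik (0.792). These r values are the highest of many and are given as a description of likeness.

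Other genes of the signalling pathway were followed with 6 lists of 84 genes, of which 82 were tested. None passed in any of the 5 comparisons. In KO against KO_WT 17 of the 82 had a higher and 65 a lower mean, with a median log2 fold change of -0.10 against 0.01 over all genes. An unadjusted p under 0.05 was found for 8 of the 82 (1 higher, 7 lower), 9.76% against 7.22% of all genes. In KI against KI_WT 35 were higher and 47 lower, with a median of -0.05 against -0.01, and 5 had an unadjusted p under 0.05 (1 higher, 4 lower), 6.10% against 6.96% of all genes. Between the wild types 25 were higher and 57 lower in KI_WT than in KO_WT, with a median of -0.03 against 0.0002 over all genes. KO_WT is the reference there as it is for KO.

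The list of synaptic scaffolds holds Homer1 to Homer3 and Shank1 to Shank3, with Dlg4 and Dlgap1 to Dlgap4, which link Shank to the NMDA receptor. In KO against KO_WT 10 of these 11 genes had a lower mean, Homer3 being the exception, and the median log2 fold change was -0.21. In KI against KI_WT 5 were higher and 6 lower, with a median of -0.09. Between the wild types 10 of the 11 were lower in KI_WT than in KO_WT, with a median of -0.07. Of the 21 G protein and effector genes 19 had a lower mean in KO, with a median of -0.14, while in KI 11 were higher and 10 lower, with a median of 0.01. In KI_WT 16 of the 21 were lower than in KO_WT, with a median of -0.06. Over the remaining 4 lists KO had a lower mean for 8 of 14 other binding partners, 9 of 12 desensitisation genes, 10 of 13 genes of glutamate and NAAG supply and clearance, and 9 of 11 of translation and endocannabinoid output. The corresponding counts in KI were 10, 4, 9 and 8, and those in KI_WT against KO_WT were 8, 8, 8 and 7. Homer2, a postsynaptic adaptor of Grm5, was at 86.8, 81.5 and 119 CPM in KO and at 120, 131 and 142 CPM in KO_WT. These libraries did not overlap, though KO 3 and KO_WT 1 were less than 1 CPM apart. The log2 fold change of Homer2 was -0.45 (SE 0.14; edgeR adjusted p = 0.678). Itpr1, the inositol trisphosphate receptor that releases calcium downstream of Gq, was at 439, 396 and 592 CPM in KO and at 834, 712 and 583 CPM in KO_WT. The libraries of Itpr1 overlapped at KO 3 and KO_WT 3, and its log2 fold change was -0.58 (SE 0.17; edgeR adjusted p = 0.678).

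Slc17a6, the vesicular glutamate transporter abundant in thalamic relay neurons, had the smallest p of its list in both lines. It was at 61.8, 79.1 and 103 CPM in KO and at 36.0, 56.4 and 41.8 CPM in KO_WT, without overlap, and the log2 fold change was 0.86, with a SE of 0.20 and an edgeR adjusted p of 0.678. In KI it was at 93.1, 72.5 and 67.6 CPM against 46.5, 55.8 and 53.8 CPM in KI_WT, again without overlap, and the log2 fold change was 0.58, with a SE of 0.20 and an edgeR adjusted p of 0.705. Thalamus markers had their higher summed levels in the mutants of both lines, as given above, without overlap in the knock-in line and with overlap in the knockout line. Slc17a6 is itself among these markers, so their sum contains it and is not a separate measure. The part of thalamic tissue in the Slc17a6 values was not tested.

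The other genes with the smallest p of their lists differed by less. In KI against KI_WT they were Kcnj3, a channel opened by Gi and Go (log2 fold change -0.31), Dlgap1, the scaffold between Shank and PSD-95 (-0.22), Cav1, the caveolin that binds group I receptors (-0.35), Rgs7, which speeds the return of Go to rest (-0.22), and Fmr1, whose product restrains translation driven by group I receptors (-0.21). Their edgeR adjusted p-values were 0.705 to 0.729. In KO against KO_WT they were Elfn1, which recruits group III receptors across the synapse (-0.12), Rgs2, a regulator of Gq (0.30), and Mgll, which degrades the endocannabinoid 2-AG (-0.28). Their edgeR adjusted p-values were 0.686 to 0.761.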

How the data were processed

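Cortical poly(A) RNA of 12 mice was sequenced, and per the submitters' processing notes bcl2fastq 2.17, STAR 2.5.0c, Cufflinks 2.2.1 and GRCm38 were used. The counter, its annotation and its use of strand are not given in the sources used here. The authors deposited a table of raw counts and a table of RPKM, both with 1 column per library, matched to libraries by title. Counts divided by RPKM gave 1 length per receptor gene. The lengths of Grm2 (4894 bp) and Grm7 (5886 bp) equal all exons of the GENCODE M21 gene, and that of Grm3 (3536 bp) exceeds the 3049 bp annotated there. Those of Grm4 (5318 bp), Grm5 (7970 bp) and Grm8 (7850 bp) are shorter than the 5977, 10247 and 9898 bp of all exons there.

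Genes were kept with filterByExpr, scaled by TMM and fitted with edgeR 4.0.16 in R 4.3.3 with 1 mean per group over all 12 libraries (8 degrees of freedom left for the spread; common biological variation 15.7%). P-values were adjusted over 17441 genes within a comparison, with a threshold of 0.05. Correlations used log2 CPM with a prior count of 2, 100000 permutations and Benjamini-Hochberg adjustment over 99 relations. The choroid plexus list is counted in the 99 relations. Its libraries fell into separate clusters, so its pooled correlations are not printed. All 6 receptor genes are named, as are the gene with the smallest p of each signalling list in each line and the 3 genes most like each receptor, of which 1 is not reported here. The receptor genes, lists and tests were chosen with earlier results of these data known. Alternatives were other normalizations, filters, tests (DESeq2 1.42.0, limma 3.58.1) and covariates, and leaving out libraries. The fit was also run on counts simulated from its own estimates of mean and spread. Those counts hold no differences of region, sex or line, so they cannot show how the test behaves in these libraries. Replicates of a group differed from each other 13.1 to 71.2 times as much as sampling variance gives.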

Additional observations from a re-analysis of the deposited data

How the results depend on the processing

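No receptor gene passed in any setting, and the smallest adjusted p of any was 0.159 (Grm3, KO against KO_WT). Of 30 log2 fold changes (6 genes in 5 comparisons) 11 kept their direction in every setting and 19 turned in at least 1. The cause was not tested. Values in parentheses are log2 fold changes.

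Grm4 turned in KI against KI_WT with limma voom and quality weights (0.33), log2(RPKM + 0.1) with or without a filter (0.14), log2(RPKM + 1) (0.099), a Y chromosome term (0.083) and without the 3 libraries highest in olfactory bulb markers (0.54), a setting chosen after seeing the data. It turned in KI against KO under the RPKM scales (0.0043 and 0.0019), an animal number term (0.032) and without those 3 libraries (0.088). It turned between the wild types with voom (-0.29), the RPKM scales (-0.046 and -0.021), terms for thalamus and olfactory bulb scores (-0.15) and without the 3 libraries (-0.41). For Grm4 the difference of effects turned in the same settings (0.28, 0.051, 0.023, 0.082 and 0.50), and KO against KO_WT turned with the region terms (-0.21).

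Grm7 in KI against KI_WT turned without a filter (0.0026), with voom (0.0080), the RPKM scales (0.048 and 0.043) and without the 3 libraries (0.036). Grm8 turned with voom in KI against KI_WT (0.19) and in the difference of effects (0.31), with the Y term in KO against KO_WT (0.098), and without the 3 libraries in these 3 comparisons (0.27, 0.21 and 0.061, with KO against KO_WT last). Between the wild types Grm3 turned with voom (0.027), and Grm2 (-0.019) and Grm5 (0.067) with the animal number term. That term also turned Grm3 in KI against KO (-0.0030). Without the 3 libraries the difference of effects of Grm5 turned (0.016).

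With single libraries left out the values ran as follows. In KI against KI_WT Grm4 ran from -0.28 to 0.55, Grm7 from -0.030 to 0.038 and Grm8 from -1.18 to 0.27. In KO against KO_WT Grm2 ran from -0.0065 to 0.39, Grm4 from -0.054 to 0.20, Grm7 from -0.018 to 0.19 and Grm8 from -0.18 to 0.045. In KI against KO Grm3 ran from -0.049 to 0.23 and Grm4 from -0.17 to 0.088. Between the wild types Grm3 ran from -0.12 to 0.044, Grm4 from -0.51 to 0.31, Grm5 from -0.061 to 0.035, Grm7 from -0.063 to 0.011 and Grm8 from -1.45 to 0.0030. In the difference of effects Grm4 ran from -0.33 to 0.50, Grm5 from -0.10 to 0.011, Grm7 from -0.19 to 0.023 and Grm8 from -1.09 to 0.37.

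Of all genes 0 were called in KI against KI_WT, 1 in KO against KO_WT, 1 in KI against KO, 0 between wild types and 1 for the difference. DESeq2 called 4, 8, 14, 1 and 5. Without a count filter 2 were called in KI against KO. On log2(RPKM + 0.1) without a filter 3, 4 and 3 were called in KO against KO_WT, KI against KO and the difference. Fitted on the groups compared alone, 1, 0 and 1 were called in KI against KI_WT, KI against KO and between the wild types. The difference had 0 calls with the region terms, with the Y term and without the 3 libraries, which gave 2 in KO against KO_WT. With single libraries left out KO against KO_WT had 1 to 6 calls (6 without KO 3) and the difference 0 to 1. Of the 99 relations 3 passed by Pearson with group means removed, 1 of them also by Spearman. The permutation p-values of that setting are too small, as stated above, so these are not read as a result. No paired analysis was possible because replicate numbers follow the order of the records and the groups share no animal number. The SE of Grm8 in KO against KO_WT (0.50) rests on a spread estimated over all 4 groups. The coefficient of variation of Grm8 was 11.2% in KO and 15.2% in KO_WT, against 40.3% in KI and 89.7% in KI_WT.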
